A study of Homo sapiens with 4 samples.

Results

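The CLK and SRPK kinases are the principal kinases of the splicing machinery in human cells. The 6 genes CLK1, CLK2, CLK3, CLK4, SRPK1 and SRPK2 were taken by symbol from a table of 56271 gene rows. All 6 were found, and all 6 were among the 12205 genes that passed the expression filter (RPKM, counts per kilobase of counted exon and 1000000 counts of the library, above 1 in at least 2 of the 4 libraries). The table held poly-A RNA-seq counts of SKBR3, a breast cancer cell line with amplified HER2, in 2 groups of 2 libraries. Control cells carried eGFP alone, driven by the human ubiquitin C promoter in the lentiviral vector FUW. VIRMA-overexpressing cells carried the same vector with VIRMA, a scaffold subunit of the m6A RNA methyltransferase complex, HA-tagged and joined to eGFP through a p2A peptide. The study used both a full-length and an N-terminal form. The sample labels and the sequencing methods name only VIRMA, and the full-length form is taken from the study's account of its results. Cells of both groups were transduced in bulk, sorted for eGFP and expanded, so the groups are sorted cell populations and not single clones. The labels give every sample a low-oxygen culture protocol, whereas the study's text sets its expression results under ordinary growth conditions. The disagreement could not be settled from the files, and the label wording is the same for both groups.

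SR proteins are splicing factors with long runs of arginine and serine, and their activity and place in the cell depend on phosphorylation of those serines. SRPK1 and SRPK2 act largely in the cytoplasm, where phosphorylation lets SR proteins be imported into the nucleus. The CLK kinases are nuclear, phosphorylate the same region further and release SR proteins from nuclear speckles. CLK transcripts are textbook examples of detained introns, in which a polyadenylated RNA keeps an intron and stays in the nucleus until it is spliced.

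Total counts were 81446932 to 86375474 per library, and replicates of one group differed by more than counting noise, with a chi-square per degree of freedom of 5.08 in controls and 4.31 in VIRMA libraries. The spread beyond counting noise was small, with a coefficient of variation of 3.93% shared across genes. The study calls the libraries biological duplicates but does not state whether they came from separate transductions. Spread between transductions may therefore not enter the p-values. VIRMA, listed under its older symbol KIAA1429, had 710 and 682 counts in control libraries against 3437 and 3460 in VIRMA libraries, which is 2.29 higher on the log2 scale (SE 0.0685, adjusted p = 9.74e-26 in edgeR). ERBB2, the gene that encodes HER2, was at 6933 to 7098 counts per 1000000 (CPM) in all 4 libraries. Of the 10 luminal line markers, 8 passed the expression filter. Of these 8, 4 were higher in VIRMA libraries and 3 lower (edgeR, adjusted p below 0.05), beside 35.1% and 35.9% of all tested genes. KRT7 had a mean of 2784 CPM in controls and 3913 CPM in VIRMA libraries, and GRB7 768 and 1034 CPM. In the other direction, KRT8 had a mean of 8287 CPM in controls and 5817 CPM in VIRMA libraries, and EPCAM 197 and 150 CPM. CDH1 and TFAP2B did not pass, and the epithelial marker CDH1 was near 0, with 5 to 33 counts. Haemoglobin HBB had 2137 and 1543 counts in the control libraries and 0 in both VIRMA libraries. The 10 erythroid markers together summed to 28.1 and 20.4 CPM in controls and to 0.514 and 0.395 CPM in VIRMA libraries. HBB, the 1 marker of the 10 that passed the expression filter, made up 25.7 and 18.4 CPM of the control sums. Of the 10, 9 were higher in both controls than in both VIRMA libraries. None of the 12 leukocyte markers passed the expression filter. Together they summed to 5.44 and 6.73 CPM in controls and to 4.93 and 5.43 CPM in VIRMA libraries. Of the 12, 8 were higher in both controls and 3 were higher in both VIRMA libraries. Beside both lists, the groups did not overlap, in either direction, for 84.3% of all tested genes. The source of the HBB counts in the control libraries was not established, and its part in the results on the kinases was not tested.

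To show what the counts of the CLK genes hold, the exons counted in the table were set against the representative (MANE Select) transcript of each gene in GENCODE release 44, on the same hg38 assembly. Introns 3 and 4 lay wholly inside the counted bases in all 4 CLK genes, so that reads from an unspliced CLK RNA over these introns were counted like exonic reads. These introns flank exon 4, a wholly coding exon of 91 bases in CLK1, 88 in CLK2, 97 in CLK3 and 91 in CLK4. Each of the 4 lengths leaves a remainder of 1 after division by 3, so leaving the exon out shifts the reading frame. The CLK1 and CLK4 exons are shown because these paralogs are the nearest pair. Capitals mark the 85 of 91 positions that are identical, on the minus strand of chr2:200860125-200860215 for CLK1 and of chr5:178617344-178617434 for CLK4.
CLK1 exon 4: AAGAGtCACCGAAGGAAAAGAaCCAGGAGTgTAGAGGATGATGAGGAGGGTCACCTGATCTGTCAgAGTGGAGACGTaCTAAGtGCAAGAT
CLK4 exon 4: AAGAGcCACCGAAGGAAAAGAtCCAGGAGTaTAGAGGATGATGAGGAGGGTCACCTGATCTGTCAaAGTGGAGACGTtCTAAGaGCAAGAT

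The 5′ splice sites of introns 3 and 4 are shown for all 4 CLK genes, with the last 6 exon bases in capitals and the first 14 intron bases in lower case. They lie at chr2:200861224-200861243 and chr2:200860111-200860130 (CLK1, minus strand), chr1:155269474-155269493 and chr1:155268694-155268713 (CLK2, minus strand), chr15:74620220-74620239 and chr15:74622211-74622230 (CLK3, plus strand), and chr5:178618542-178618561 and chr5:178617330-178617349 (CLK4, minus strand), all on hg38.
CLK1 intron 3: CATGGGgtatgaacgttttt
CLK2 intron 3: TCTTCGgtgagtgccagccc
CLK3 intron 3: TCCTCGgtgagtggtagcca
CLK4 intron 3: CGTTCGgtatgattggtttt
CLK1 intron 4: CAAGATgtatagaatatttt
CLK2 intron 4: AGCGATgtacaagccaaatc
CLK3 intron 4: AGCGATgtacagccaccttt
CLK4 intron 4: CAAGATgtatagaatatttt
At intron 4 the CLK1 and CLK4 sites were identical over all 20 bases, while CLK2 and CLK3 shared 13 of 20. At intron 3 the same pairs shared 14 and 16 of 20 bases. Across these pairs, sites shared 4 to 7 of 20 bases at intron 3 and 9 to 11 of 20 at intron 4. The 4 genes thus fall into the pairs CLK1 with CLK4 and CLK2 with CLK3 by these sites, narrowly so for CLK2 with CLK3 at intron 4.

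CLK1, the founding member of the Cdc2-like kinases, showed the largest difference of the 6 kinases. CLK1 (chr2:200853009-200864744, minus strand, hg38) had 1610 and 1639 counts in the control libraries and 4105 and 4417 in the VIRMA libraries, or 19.4, 19.6, 47.9 and 52.8 CPM. Both VIRMA libraries were far above both controls. The means were 19.5 ± 0.160 CPM in controls and 50.4 ± 3.46 CPM in VIRMA cells (SD, n = 2 each). The log2 fold change was 1.37 (SE 0.0577, 95% interval 1.25 to 1.49, edgeR quasi-likelihood test, Benjamini-Hochberg adjusted p = 2.28e-21), a 2.59-fold rise. Only 1.84% of the tested genes had a higher log2 fold change.

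CLK4, the paralog nearest to CLK1, had the lowest level of the family. CLK4 (chr5:178602664-178630615, minus strand) had 798 and 722 counts in controls and 1565 and 1466 in VIRMA libraries, or 9.59, 8.63, 18.3 and 17.5 CPM. The groups did not overlap, and the means were 9.11 ± 0.684 and 17.9 ± 0.523 CPM (SD, n = 2 each). CLK4 rose by a log2 fold change of 0.98 (95% interval 0.80 to 1.15, SE 0.0859, edgeR adjusted p = 2.17e-12), or 1.97-fold, and 5.14% of the tested genes had a higher value. Its interval includes 1, so the data do not place CLK4 on either side of a 2-fold change.

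CLK2, a broadly expressed family member, also rose, but by less. CLK2 (chr1:155262868-155278491, minus strand) had 5888 and 5906 counts in controls and 9570 and 9801 in VIRMA libraries, or 70.8, 70.6, 112 and 117 CPM. The 2 controls were almost equal and both VIRMA libraries were higher. The log2 fold change was 0.70 (SE 0.0380, 95% interval 0.62 to 0.77, edgeR adjusted p = 4.44e-18), or 1.62-fold, and 10.7% of the tested genes had a higher value.

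CLK3, the nearest paralog of CLK2, had the smallest rise. CLK3 (chr15:74598500-74645414, plus strand) had 6267 and 5888 counts in controls against 7006 and 7073 in VIRMA libraries, or 75.4, 70.4, 81.8 and 84.6 CPM. The groups did not overlap, and the control libraries had an SD of 3.53 CPM. The log2 fold change was 0.19 (SE 0.0407, 95% interval 0.11 to 0.27, edgeR adjusted p = 8.64e-05). With 36.0% of tested genes above it, CLK3 lay well inside the bulk of the transcriptome.

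Both SRPK genes, by contrast, had lower means in VIRMA cells, and 1 of the 2 passed the test. SRPK1, a mainly cytoplasmic SR protein kinase (chr6:35832966-35921342, minus strand), had 4467 and 4660 counts in controls and 3990 and 3987 in VIRMA libraries, or 53.7, 55.7, 46.6 and 47.7 CPM. Both VIRMA libraries were below both controls. The log2 fold change of SRPK1 was -0.21 (95% interval -0.31 to -0.12, SE 0.0452), which passed the edgeR test at an adjusted p = 7.99e-05. With 32.1% of tested genes below it, SRPK1, like CLK3, lay well inside the bulk of the transcriptome.

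SRPK2, its paralog (chr7:105110704-105399308, minus strand), had 3026 and 3326 counts in controls and 3113 and 2989 in VIRMA libraries, or 36.38, 39.74, 36.35 and 35.76 CPM. The lower control and the higher VIRMA library were almost the same. The log2 fold change was -0.08 (SE 0.0539, 95% interval -0.19 to 0.03, edgeR adjusted p = 0.195), which did not pass the test and leaves a change of either sign within the interval. Without control replicate 1 the value was -0.145 with an adjusted p of 0.0415, and with library totals in place of TMM factors it was 0.006 with an adjusted p of 0.932.

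**Figure D1:**
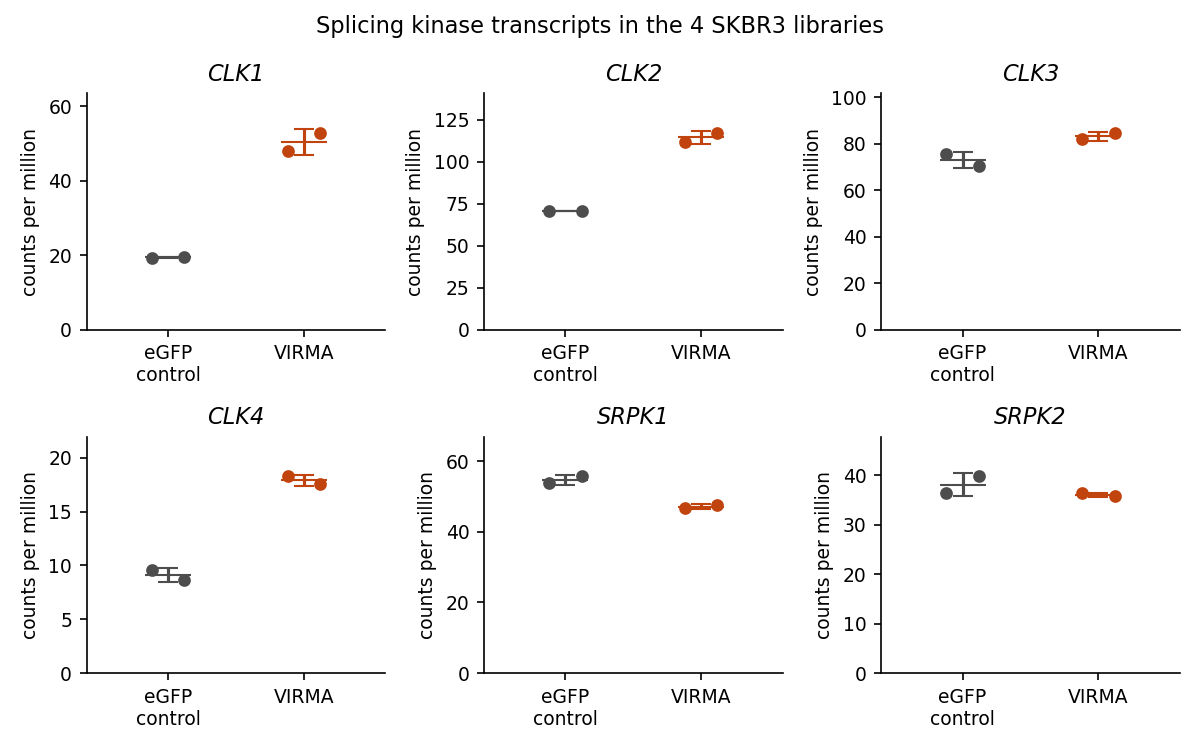
CPM (y axis, from 0) of each kinase in the eGFP control (grey) and VIRMA-overexpressing (orange) libraries; points are libraries, horizontal lines group means and bars the SD (n = 2 each). CLK1 runs from 19.4 and 19.6 to 47.9 and 52.8, whereas the SRPK2 groups almost touch at 36.38 and 36.35.

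In all, 4 of the 6 kinases were higher in VIRMA cells and 1 was lower at an adjusted p below 0.05, against 35.1% of all tested genes higher and 35.9% lower. The 4 that rose were the 4 CLK genes. CLK1 alone passed a log2 fold change of 1, which 4.52% of tested genes passed upwards and 2.93% passed downwards below -1. The groups did not overlap for any of the 6 kinases, as for 84.3% of all tested genes, so this separation is no mark of the kinases. With 2 libraries in each group, the smallest p that an exact permutation test allows for 1 gene is 0.33, and the adjusted p-values rest on the spread shared across genes.

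**Figure D2:**
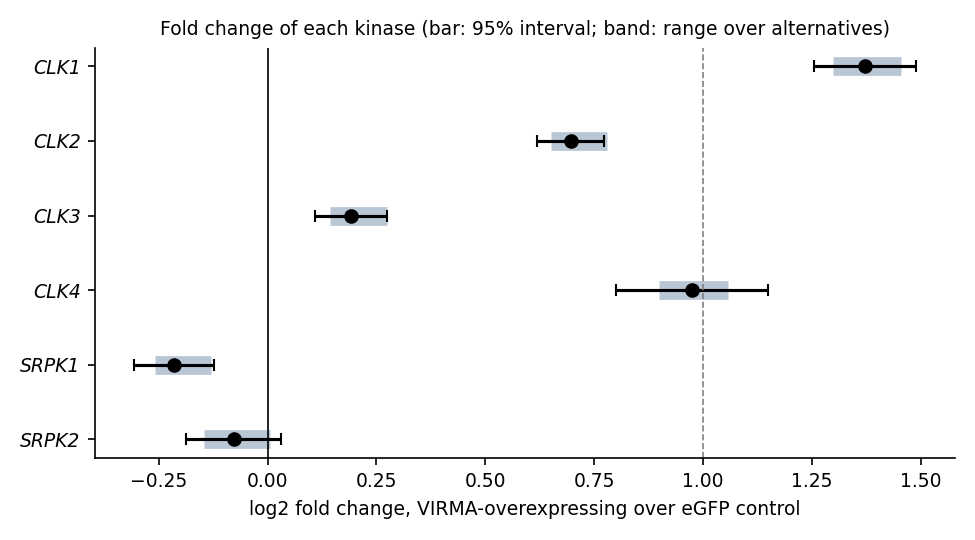
Log2 fold change of each kinase, VIRMA-overexpressing over eGFP control (x axis), with its 95% interval (black bar) and the range over 13 other ways of processing (blue band); the dashed line marks a 2-fold change. CLK1 lies at 1.37, the CLK4 interval spans 1, and SRPK2 spans 0.

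Levels of different genes were compared only per length. In RPKM, with all counted exonic bases as the length, control cells had CLK2 at 19.3 ± 0.0436, SRPK1 at 8.17 ± 0.208, SRPK2 at 6.00 ± 0.374, CLK1 at 3.77 ± 0.0309, CLK3 at 3.56 ± 0.173 and CLK4 at 1.15 ± 0.0864 RPKM (SD, n = 2). CLK1 and CLK3 were neighbours that differed by little more than the SD of CLK3. In VIRMA cells CLK1 stood at 9.75 ± 0.670 RPKM, above SRPK1 at 7.05 ± 0.116, SRPK2 at 5.69 ± 0.0667 and CLK3 at 4.07 ± 0.0966, while CLK2 stayed first at 31.2 ± 1.06 and CLK4 last at 2.26 ± 0.0660.

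The order depended on the length used. The counted bases of CLK3 came to 20443, or 11.0 times its 1854-base representative transcript, whereas this ratio was 1.54 to 3.16 in the other 5 genes. A value per kilobase of representative transcript, a length chosen after the data had been seen, still holds the reads over all counted bases. Of these bases, 9.07% lay in the representative transcript in CLK3 and 31.6% to 65.0% in the other 5 genes. The level of the representative transcript itself, above all for CLK3, cannot be read from it. On this scale CLK3 was first in control cells at 39.3 ± 1.91 CPM per kb, ahead of CLK2 at 32.8 ± 0.0743. In VIRMA cells CLK2 at 53.2 ± 1.80 was ahead of CLK3 at 44.9 ± 1.07 CPM per kb. CLK1 (10.5 ± 0.0864) and SRPK2 (10.3 ± 0.645) overlapped in control cells, and in VIRMA cells CLK1 was at 27.3 ± 1.88 against 9.80 ± 0.115 for SRPK2. Fold changes within a gene are the same for either length.

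**Figure D3:**
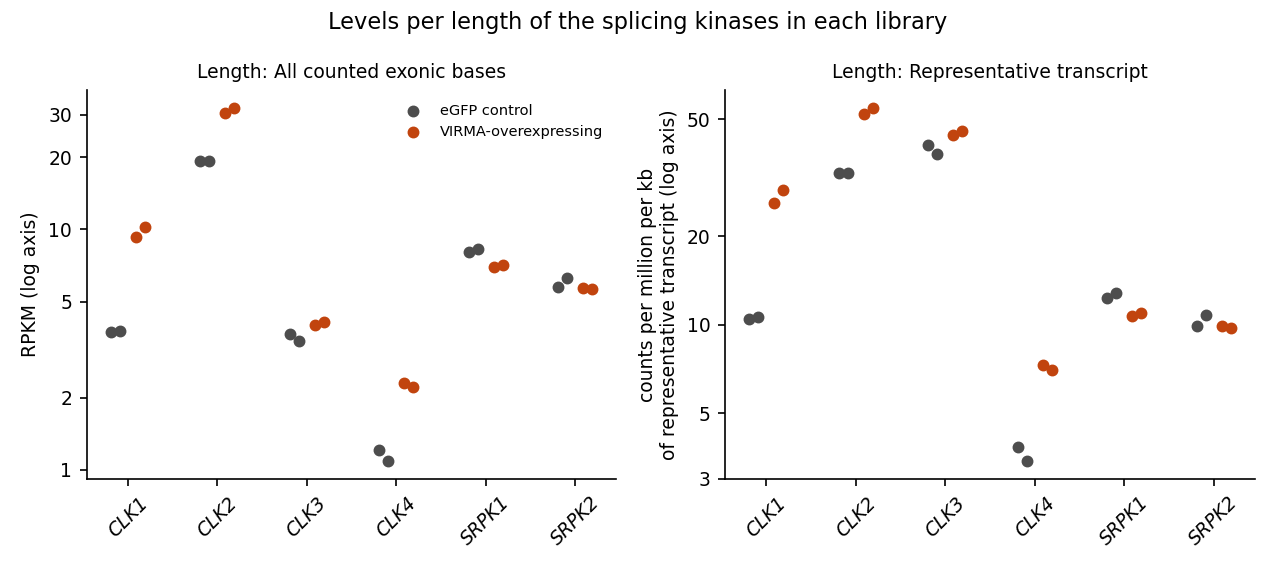
Level of each kinase in each library on log axes, in RPKM over all counted exonic bases (left) and in CPM per kb of the representative transcript (right); points are libraries, grey for eGFP control and orange for VIRMA-overexpressing. Reads over all counted bases enter both panels. CLK3 is at 3.56 RPKM in controls on the left and at 39.3 CPM per kb, the highest in controls, on the right.

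The balance within the family moved with these differences. In the summed RPKM of the 4 CLK genes, the share of CLK1 was 13.6% ± 0.245 in controls and 20.6% ± 0.652 in VIRMA cells (SD, n = 2), and per kb of representative transcript it was 12.2% ± 0.407 and 20.6% ± 0.712. The share of CLK3 was 12.8% ± 0.497 and 8.61% ± 0.116 in RPKM, but 45.5% ± 1.07 and 33.9% ± 0.355 per kb of representative transcript, lower in VIRMA cells on both lengths. The share of CLK2 was 69.4% in controls and 66.0% in VIRMA cells in RPKM, but 38.0% and 40.1% per kb of representative transcript, so its direction depended on the length. In RPKM, the CLK sum was 1.96 ± 0.0997 times the sum of SRPK1 and SRPK2 in controls. In VIRMA cells it was 3.71 ± 0.124 times. Per kb of representative transcript the CLK sum was 3.77 ± 0.253 times and 6.42 ± 0.200 times that of SRPK1 and SRPK2. SRPK3, which is not one of the 6 kinases, is left out of these sums. Its mean was 2.32 RPKM in controls and 4.04 RPKM in VIRMA cells. In RPKM the ratio of CLK1 to CLK4 was 3.29 ± 0.274 in controls and 4.32 ± 0.423 in VIRMA cells, and per kb of representative transcript it was 2.91 ± 0.242 and 3.82 ± 0.374. The ratio of CLK2 to CLK3 was 5.41 ± 0.250 and 7.66 ± 0.0777 in RPKM, but 0.836 ± 0.0387 and 1.18 ± 0.0120 per kb of representative transcript, so which of the pair was higher in controls depended on the length. These shares and ratios did not overlap between groups and are given as a description, without a test. Those per kb of representative transcript again hold the reads over all counted bases.

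Bases annotated only in retained-intron transcripts made up 47.5% of the counted bases of CLK1, 38.3% of CLK4, 18.0% of CLK3, 16.4% of SRPK1 and 14.9% of SRPK2. CLK2 had none annotated in this way, although 4 of its introns, numbers 3, 4, 10 and 11, were wholly counted through other transcripts. Further wholly counted introns were 2 and 7 in CLK1, 12 in CLK3, 11 and 12 in CLK4 and 1 in SRPK1, and there was none in SRPK2. A gene-level count cannot tell a spliced CLK transcript from an unspliced one, so whether the CLK1 and CLK4 rises lay in coding or in intron-retaining RNA was not tested.

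**Figure D4:**
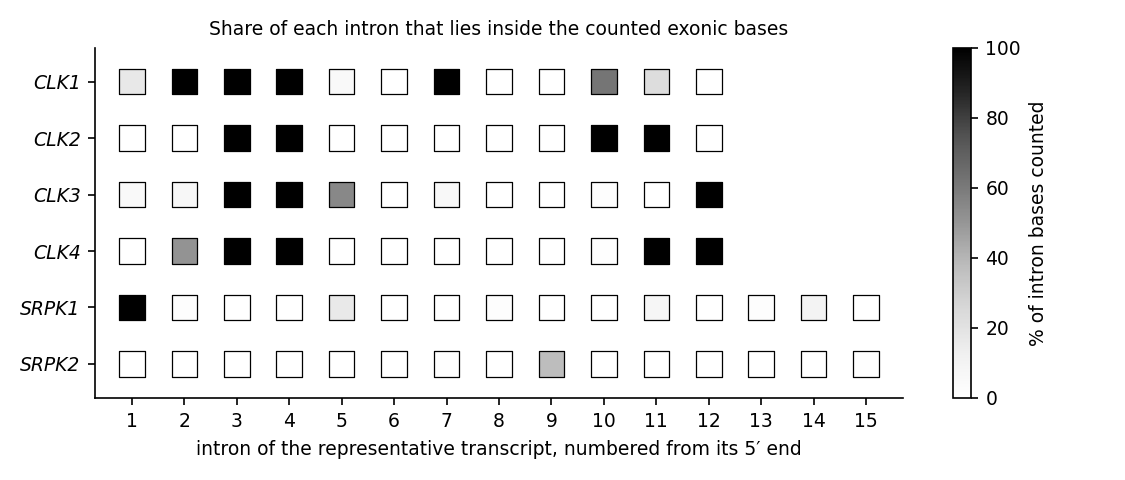
Share of the bases of each intron (x axis, numbered from the 5′ end of the representative transcript) that lay inside the counted exonic bases of each gene, from 0% (white) to 100% (black). Introns 3 and 4 are wholly counted in CLK1, CLK2, CLK3 and CLK4, and no intron of SRPK2 is.

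Reads can also be shared with other genes. The coding sequences of CLK1 and CLK4 were identical at 77.6% of 1434 aligned bases and their representative transcripts shared no identical run longer than 34 bases. For CLK2 and CLK3 these values were 68.8% and 17 bases, and for SRPK1 and SRPK2 68.8% and 23 bases. The pseudogenes CLK2P1, CLK3P2 and SRPK2P had 0 to 4 counts in any library. Among overlapping rows, EDC3, an mRNA decapping gene on the opposite strand, shared 701 bases (3.43%) with CLK3 and had 2985 and 2923 counts in controls and 3043 and 2672 in VIRMA libraries. KMT2E, a chromatin regulator opposite SRPK2, shared 98 bases (1.55%) and had 2774 and 2635 counts in controls against 3889 and 3773 in VIRMA libraries. The other 5 overlapping rows had 0 to 21 counts each. The kit marks strand, but the strand setting of the counting is not given in the sources used here.

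The bases before the RefSeq start of CLK1, CLK2, CLK3, SRPK1 and SRPK2 (GRCh38.p14) were searched for short motifs. The window was the 150 bases upstream, and the motifs were chosen after the values and sequences had been seen. The promoter entry nearest to the representative transcript was used. The letters TGACG (the half-site of the cyclic AMP response element) occurred on either strand before CLK1 and CLK3, and the E-box CACGTG before CLK2. Of 35116 promoters of the same length, 15.4% held TGACG and 4.57% held CACGTG. The sites are shown with 10 bases on each side and the matched letters in capitals.
CLK1, chr2:200864693-200864717, minus strand: gcgctcgctgCGTCAtcagtgtttt
CLK2, chr1:155273561-155273586, minus strand: actacgtgagCACGTGgtggcgcgcg
CLK3, chr15:74615782-74615806, plus strand: gcgacggctgCGTCAcgcgaggggg
Neither motif was found in these windows of SRPK1 and SRPK2, and all 5 windows held the GC box GGGCGG, as did 36.8% of promoters. The 5 windows were 70% to 88.7% G or C, against a median of 60% over all promoters. None of the 5 held the letters CCAAT or TATAAA, which 23.5% and 6.71% of promoters held. All these motifs are matches of letters, not measured binding sites.

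The gene lists that follow were chosen with earlier results of these data known, so their counts are description only. The SR protein genes, whose products these kinases phosphorylate, did not move one way. Of 11 tested, 5 were higher and 5 lower in VIRMA cells, beside 35.1% higher and 35.9% lower among all tested genes, and the median log2 fold change was -0.01 against 0.01 over all tested genes. SRSF6 rose by 0.79 (SE 0.0294, edgeR adjusted p = 6.97e-23), from 380 ± 2.36 to 656 ± 22.3 CPM, and SRSF11 by 0.61 (adjusted p = 1.80e-18). SRSF3 fell by 0.47 (SE 0.0316, adjusted p = 1.87e-15), from 264 ± 5.93 to 191 ± 2.25 CPM, and SRSF2 by 0.30 (adjusted p = 4.66e-10). SRSF2 shares 36.7% of its counted bases with MFSD11 on the opposite strand. Among 19 SR-related genes, 12 were higher and 2 lower, again beside 35.1% and 35.9% of all tested genes, with a median of 0.25. RBM39, an RNA-binding splicing cofactor, rose by 0.91 (SE 0.0298, adjusted p = 1.18e-24) and ARGLU1, an arginine- and glutamate-rich splicing modulator, by 0.79 (adjusted p = 1.21e-21). RNPS1, a component of the exon junction complex periphery, fell by 0.32 (adjusted p = 4.63e-10) and TRA2B, a splicing activator, fell by 0.13 (adjusted p = 0.00132).

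Kinases related to the CLK and SRPK genes were higher in 5 of 8 tested, lower in 1 and without a call in 2, beside 35.1% of all tested genes higher and 35.9% lower, with a median log2 fold change of 0.36. DYRK4, a dual-specificity kinase, rose by 0.81 (SE 0.0613, edgeR adjusted p = 4.52e-14), with 19.7 and 20.7 CPM in controls and 36.0 and 34.6 CPM in VIRMA libraries. SRPK3, the muscle-enriched member of the SRPK family, rose by 0.80 (SE 0.0848, adjusted p = 2.26e-10) from 929 and 910 counts to 1781 and 1462. SRPK3 shares 1432 counted bases (30.2%) with PLXNB3 on the same strand, and PLXNB3 had 2145 and 2177 counts in controls and 3117 and 3181 in VIRMA libraries, so the assignment of reads to SRPK3 is uncertain. DYRK1B fell by 0.35 (adjusted p = 0.00149). Of the CDK11, cyclin L, CDK12 and CDK13 genes, which link transcription to splicing, 5 of 6 tested were higher and 1 lower (median 0.38), beside the same 35.1% and 35.9%. CCNL1 rose by 0.86 (SE 0.0426, adjusted p = 2.32e-19) and CCNL2 by 0.72 (adjusted p = 5.04e-22), both cyclin L genes, while CDK11B fell by 0.18 (adjusted p = 0.000380).

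Of 14 tested genes for SRPK chaperones, nuclear import of SR proteins and SR protein phosphatases, 12 were lower, 1 higher and 1 without a call, beside 35.9% of all tested genes lower and 35.1% higher. Their median log2 fold change was -0.32, and 2 of the 14 were below -1, as were 2.93% of all tested genes. HSPA8, the constitutive HSP70 chaperone that binds SRPK1, fell by 1.82 in log2 units (adjusted p = 1.15e-33 in edgeR, SE 0.0297). Its values were 719 and 708 CPM in controls and 200.9 and 204.8 CPM in VIRMA libraries. HSP90AA1, the inducible HSP90, fell by 1.21 (SE 0.0293, adjusted p = 1.32e-28), from 583 and 586 CPM to 250.3 and 254 CPM. PPP1CB, a catalytic subunit of protein phosphatase 1, was the gene that rose, by 0.17 (adjusted p = 2.43e-05). These chaperones serve many other proteins besides SRPK1, and the list says nothing of where SRPK1 protein was.

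The other known detained-intron transcripts in the list were all higher. OGT, which adds O-GlcNAc to proteins, rose by 1.25 (SE 0.0302, edgeR adjusted p = 1.50e-28), from 216 and 211 CPM in controls to 514 and 502 CPM in VIRMA libraries. OGA, which removes it and is listed as MGEA5, rose by 0.61 (SE 0.0397, adjusted p = 6.85e-16). MAT2A, which makes S-adenosylmethionine, the methyl donor of m6A, rose by 0.30 (SE 0.0307, adjusted p = 8.27e-11), and shares 12.4% of its counted bases with GGCX on the opposite strand. OGT lay close to CLK1 in size of change and MAT2A close to CLK3, and 3 genes of 3 are too few to set against the 35.1% of all genes that rose.

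**Figure D5:**
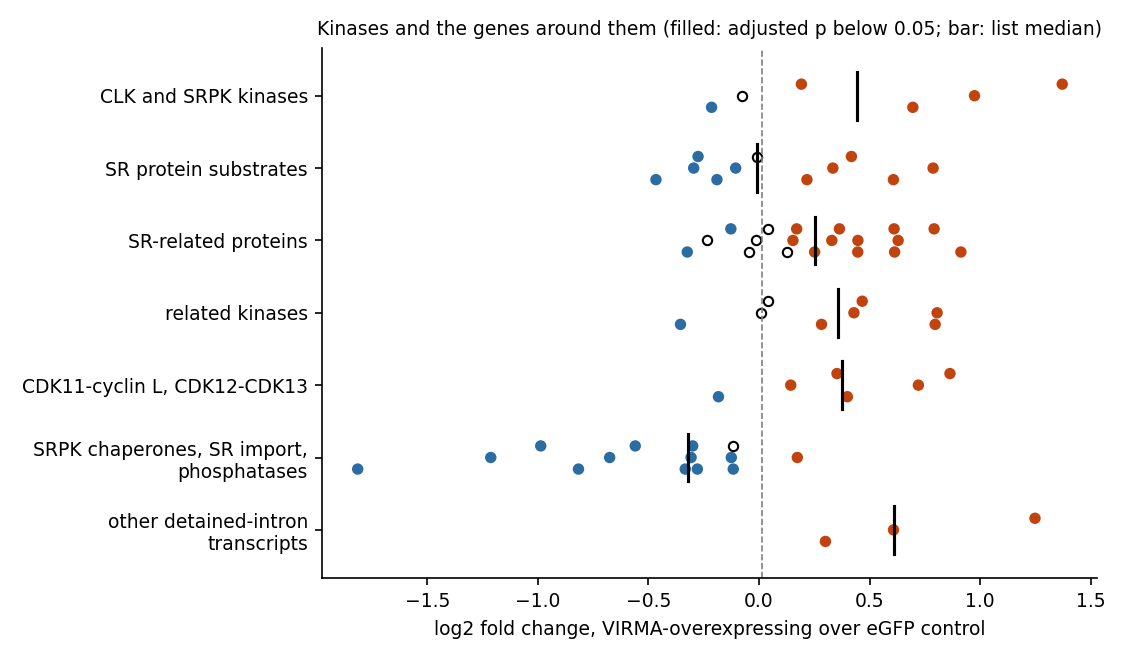
Log2 fold change (x axis, VIRMA-overexpressing over eGFP control) of each tested gene in the kinase family and 6 lists around it. Filled points passed an adjusted p below 0.05 (orange higher, blue lower), open points did not, black bars are list medians and the dashed line is the median of all tested genes; the SRPK chaperone, import and phosphatase list lies mostly below 0, with HSPA8 at -1.82.

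Across the 4 libraries, the 3 genes with the profile nearest to that of CLK1 (smallest Euclidean distance of centred log2 CPM, among 8644 genes with a mean of at least 10 CPM) were MYO15B, RASD1 and SLC6A9, with log2 fold changes of 1.39, 1.31 and 1.40 and distances of 0.0428, 0.0820 and 0.0820. For SRPK1 they were RUVBL1, CHAMP1 and POLR1B, each at -0.22, with distances of 0.0113 to 0.0119. With 2 groups of 2 libraries, likeness of profile says little beyond likeness of fold change.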

How the data were processed

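According to the study's methods and the labels, the authors trimmed reads with Trimmomatic 0.39, mapped them to hg38 (Ensembl 86) with STAR 2.5.2a and deposited gene counts made with featureCounts. Strand and multi-mapping settings are not given in the sources used here. The control columns carry the control's name. The columns without a group name were taken as VIRMA-overexpressing as the remaining group, and the VIRMA count checks this. Counts were tested with edgeR 4.0.16 (R 4.3.3) by its quasi-likelihood test with TMM factors (0.969 to 1.03) and group as the only term, over 12205 genes (2 or more libraries above 1 RPKM), with p-values adjusted by Benjamini-Hochberg over all of them. CPM values use TMM-scaled library totals. DESeq2 1.42.0, limma-voom 3.58.1, other scalings and filters, a replicate block and leaving out each library were alternatives. The script was tested on simulated data. The members and lists were chosen with earlier results of these data known. Named genes were, per list, the 2 with the largest rise and the 2 with the largest fall among called genes, all 3 detained-intron genes, overlapping rows and nearest profiles. The fibroblast and endothelial markers summed to 19.8 to 21.4 CPM in controls and 16.4 to 17.9 CPM in VIRMA libraries, and the 10 luminal markers to 28627 to 29118 and 27262 to 27539 CPM. Transcript structures came from GENCODE release 44 and promoters from RefSeq, of which 1 member's is not reported here. The table's strand field is cut short in 1995 rows with many exons, for which the strand listed first was used.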

Additional observations from a re-analysis of the deposited data

How the results depend on the processing

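CLK1, CLK2, CLK3, CLK4 and SRPK1 kept their direction and an adjusted p below 0.05 under all 13 alternatives. Leaving out each library gave 1.30 to 1.44 for CLK1, 0.661 to 0.73 for CLK2, 0.143 to 0.238 for CLK3, 0.90 to 1.049 for CLK4, -0.245 to -0.188 for SRPK1 and -0.145 to -0.013 for SRPK2 (log2). SRPK2 was called (-0.145, adjusted p = 0.0415) only without control replicate 1, which raised the members lower from 1 to 2, and was 0.006 with library totals. Requiring a log2 fold change beyond 1 left 1 kinase higher and 0 lower, and 552 genes higher and 358 lower of all tested. Upper-quartile factors and library totals moved the median of all genes by 0.0715 and 0.0835. The SR protein median changed sign to 0.063 with upper-quartile factors, 0.075 with library totals, 0.004 with filterByExpr, 0.013 without a filter and 0.017 with a minimum of 10 counts per library, and leaving out each library gave -0.043 to 0.025, with 0.015 without control replicate 2 and 0.025 without VIRMA replicate 2. These medians are near 0, and the cause was not tested. The replicate numbers share no stated pairing, and deviations of same-numbered libraries correlated at 0.0755 over 2 pairs. With a replicate block, CLK1 was 1.37, CLK2 0.696, CLK3 0.192, CLK4 0.976, SRPK1 -0.214 and SRPK2 -0.077, with 4 kinases higher and 1 lower, and 4358 genes higher and 4454 lower in all. With 2 libraries per group, single-gene tests rest on the spread pooled across genes.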
